A study of Mus musculus with 4 samples.

Results

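Osteo-primed stromal cells carrying Megf10, Postn, Spp1 and Mmp13 were examined within single-cell transcriptomes of RANKL-lineage cells from mouse hindlimb bone and marrow. The cells were selected on measured values. Among cells with at least 500 genes and under 10% mitochondrial UMIs (unique molecular identifiers, 1 per captured RNA molecule), a gate kept those with Cxcl12 below 50 counts per 10000 (CP10k), Bglap plus Bglap2 below 100 CP10k, and Wif1, Limch1, Tnc, Mmp13 and Kcnk2 together at 10 CP10k or more. Cells with 3 or more UMIs of Panx3, Adamts18, Fat3 and Lgr6 were left out. A score then took the mean log level of Megf10, Postn, Spp1 and Mmp13 minus that of Hs3st5, Nlgn1, Angpt4, Ndnf and Kcnk2, and the gated cells above its median were kept. They are called the Megf10 side here, and the other gated cells the Kcnk2 side. Of 2825 cells in all, 237 passed the gate and 118 were on the Megf10 side.

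The mice were 10-week-old C57BL/6J animals of genotype Tnfsf11tTA/+; LC1; Rosa26LSL-tdTomato. The tetracycline transactivator sits at the locus of Tnfsf11, which encodes RANKL, LC1 supplies Cre under its control, and Cre switches on tdTomato for good, so a labelled cell has expressed the driver at some time or descends from a cell that did. Doxycycline was given from the start of gestation to birth in both groups to keep fetal cells unlabelled. Live CD45.2-Ter119-tdTomato+ cells came from femurs and tibias of both limbs, 4 control animals pooled into 1 library and 6 animals after 2 weeks of hindlimb immobilization pooled into another. With 1 pool per group there is no replicate, so intervals below are 95% counting intervals over UMIs or cells and no difference between the pools could be tested against animals.

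Bone-forming cells arise from marrow stroma through a stage at which Runx2 is on and osteoblast collagen is still low. Osteopontin (Spp1), bone sialoprotein (Ibsp), Dmp1 and Mepe are acidic, integrin-binding proteins of mineralized matrix whose genes lie side by side. Periostin (Postn) is a matricellular protein of periosteum and loaded connective tissue, Mmp13 is a collagenase of bone and hypertrophic cartilage, and Megf10 is a receptor for engulfing dying cells and cell debris best known from glia and muscle.

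Dmp1, Ibsp, Mepe and Spp1 share a stretch of chromosome 5, and Mmp13 lies on chromosome 9. The 150 bases before the RefSeq start of each are shown, from GRCm38.p6 and all on the plus strand. These 5 genes were picked because they stood higher on the Megf10 side than on the Kcnk2 side in at least 1 pool. For Spp1 and Mmp13, which are score genes, that follows from the score. Capitals mark matches on either strand to a RUNX core, an AP-1 site or a TATA box. The windows are chr5:104202467-104202616 for Dmp1, chr5:104299137-104299286 for Ibsp, chr5:104325179-104325328 for Mepe, chr5:104434961-104435110 for Spp1 and chr9:7272364-7272513 for Mmp13.
Dmp1: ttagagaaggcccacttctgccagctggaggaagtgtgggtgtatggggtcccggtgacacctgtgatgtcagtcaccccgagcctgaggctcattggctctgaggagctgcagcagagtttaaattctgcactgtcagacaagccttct
Ibsp: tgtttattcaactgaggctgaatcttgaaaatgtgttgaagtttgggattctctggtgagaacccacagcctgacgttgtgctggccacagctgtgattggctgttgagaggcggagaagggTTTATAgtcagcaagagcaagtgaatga
Mepe: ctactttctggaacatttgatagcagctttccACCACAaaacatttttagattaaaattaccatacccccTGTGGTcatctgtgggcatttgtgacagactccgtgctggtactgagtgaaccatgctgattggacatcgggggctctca
Spp1: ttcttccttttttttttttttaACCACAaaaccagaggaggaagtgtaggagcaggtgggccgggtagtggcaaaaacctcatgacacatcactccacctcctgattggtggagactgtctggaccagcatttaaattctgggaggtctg
Mmp13: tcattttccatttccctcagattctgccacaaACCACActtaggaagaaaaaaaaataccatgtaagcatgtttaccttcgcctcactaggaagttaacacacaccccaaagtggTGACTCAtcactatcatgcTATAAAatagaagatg
The RUNX core, TGTGGT, occurred in 3 of the 5 windows (Mepe, Spp1 and Mmp13), against 8.28% of 32475 promoter windows of that length. The AP-1 site, TGANTCA, occurred in Mmp13 alone, against 4.231% of windows. The TATA box, TATAAA, occurred in Ibsp and Mmp13, against 7.55% of windows. A homeodomain core, TAATTA, was searched too and occurred in 0 of the 5, against 2.728% of windows. No match overlapped another. These are letter matches in 1 window per gene, and binding was not measured.

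The Megf10 side held 46 control cells, 3.23% of kept cells (exact Clopper-Pearson interval 2.37 to 4.28), and 72 immobilized cells, 5.15% (4.05 to 6.44). Within the gate these were 51.7% (40.8 to 62.4) and 48.6% (40.4 to 57.0) of 89 and 148 cells, so the larger share in the immobilized pool came with a larger gate. The limit on Panx3, Adamts18, Fat3 and Lgr6 is set in UMIs and so depends on depth. It removed 201 control and 416 immobilized cells that met every other condition, with a median of 6867 and 6659 UMIs against 4537 and 3784.5 in the gated cells. Without it, a setting chosen after seeing the data, the Megf10 side was 9.75% and 20.6% of kept cells. Thinned to 2000 UMIs before the gate, it was 5.76% and 9.37%. The immobilized share was above the control share in each of these settings.

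The score cut lay at 1.626. The nearest cells above it scored 1.644, 1.673 and 1.695, and those at or below it 1.626, 1.608 and 1.607, so the sides are ranges of a continuous score and not separate types. In the 10 cells nearest above the cut, summed Spp1 was 15175 CPM (UMIs of the gene per 1000000 UMIs of those cells), and in the 10 nearest at or below it 9966 CPM, against 51474 and 49841 CPM over all control and immobilized cells of the side. Dmp1, which the score did not use, was at 39.7 CPM in the 10 cells above the cut and 470 CPM in the 10 at or below it, from 2 and 18 UMIs. All 4 genes of the upper score had a UMI in 16 control and 19 immobilized cells, 3 of them in 23 and 32, 2 in 7 and 20, and 1 in 1 immobilized cell.

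Both libraries were sequenced in 2 lanes that shared 1617 of 1620 control and 1747 of 1751 immobilized barcodes. The lanes differed by less than sampling noise (chi-square per gene 0.531 and 0.581) and were counted as 1 sample, with lane 1 used throughout. The pools shared 3 barcodes. On the Megf10 side the median depth was 4477 UMIs in control and 4180.5 in immobilized cells (range 852 to 14387 over both), and the median mitochondrial share 3.73% and 4.08%. Xist without Y-linked transcripts marked 30 control and 37 immobilized cells as female, the reverse marked 6 and 20 as male, and 10 and 15 were not called. The tdTomato transcript was found in 18 of 46 and 17 of 72 cells. The doublet caller Scrublet marked 18 control and 9 immobilized barcodes, of which 0 were gated.

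Spp1, one of the genes the score used, defined the side by level. Its lowest, median and highest cells were at 10.2, 386 and 1715 CP10k in control and at 2.79, 423 and 1605 CP10k in immobilized cells, and all 118 cells had a UMI. Summed Spp1 was 51474 CPM (50588 to 52371) and 49841 CPM (49066 to 50626), against 2962 and 5771 CPM on the Kcnk2 side and 15374 and 13967 CPM in cells of the early osteoblast gate (low Cxcl12 and Bglap, and 3 or more UMIs of Panx3, Adamts18, Fat3 and Lgr6). Mmp13, also a score gene, had a UMI in 45 of 46 and 70 of 72 cells and was at 9466 and 9310 CPM, against 3973 and 2884 CPM on the Kcnk2 side. Its log2 ratio, immobilized over control, was -0.33 (-0.43 to -0.23) in cells called female. In cells called male, 6 in control and 20 in immobilized, it was 1.55 (1.27 to 1.86). Megf10 was sparse, at 192 and 234 CPM from 48 and 74 UMIs in 20 and 37 cells, against 4.41 and 40.8 CPM on the Kcnk2 side. These contrasts follow from the score and are descriptions.

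Postn, also a score gene, was uneven between the pools. Its level and share of cells on the Megf10 side are shaped by the score cut, so the values are descriptions. It stood at 1104 CPM (978 to 1243) in control and 459 CPM (387 to 540) in immobilized cells of the Megf10 side, a log2 ratio of -1.26 (-1.57 to -0.97), with 276 and 145 UMIs. A Postn UMI was found in 36 of 46 control cells (78.3%, 63.6 to 89.1) and 34 of 72 immobilized cells (47.2%, 35.3 to 59.3), and after thinning to 2000 UMIs in 64.3% of 42 and 32.8% of 61 cells deep enough. It also stood lower in the immobilized pool on the Kcnk2 side, at 375 and 100 CPM, and the early osteoblast gate had 505 and 416 CPM. In cells with 2 or more UMIs of at least 3 granulocyte, B lineage or erythroid markers, which should lack Postn, a UMI was found in 7.1% and 3.8%. Those 56 and 78 cells had a median of 3267.5 and 2285 UMIs.

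Wif1, a secreted Wnt inhibitor counted among the markers of this stroma and a gene of the gate, gave different orders by sum and by cell. Its sum was 352 and 339 CPM in control and immobilized cells of the Megf10 side, against 706 and 638 CPM on the Kcnk2 side, where 55 of 160 and 56 of 172 UMIs came from 1 cell each. Without the top cell of each class and pool the sums were 318 and 311 CPM against 484 and 446 CPM, with 506 and 452 CPM in the early osteoblast gate. By cell, a Wif1 UMI was found in 71.7% and 52.8% of Megf10-side cells against 46.5% and 47.4% on the Kcnk2 side, with medians of 2.42 and 1.58 CP10k against 0 in both pools.

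**Figure D1:**
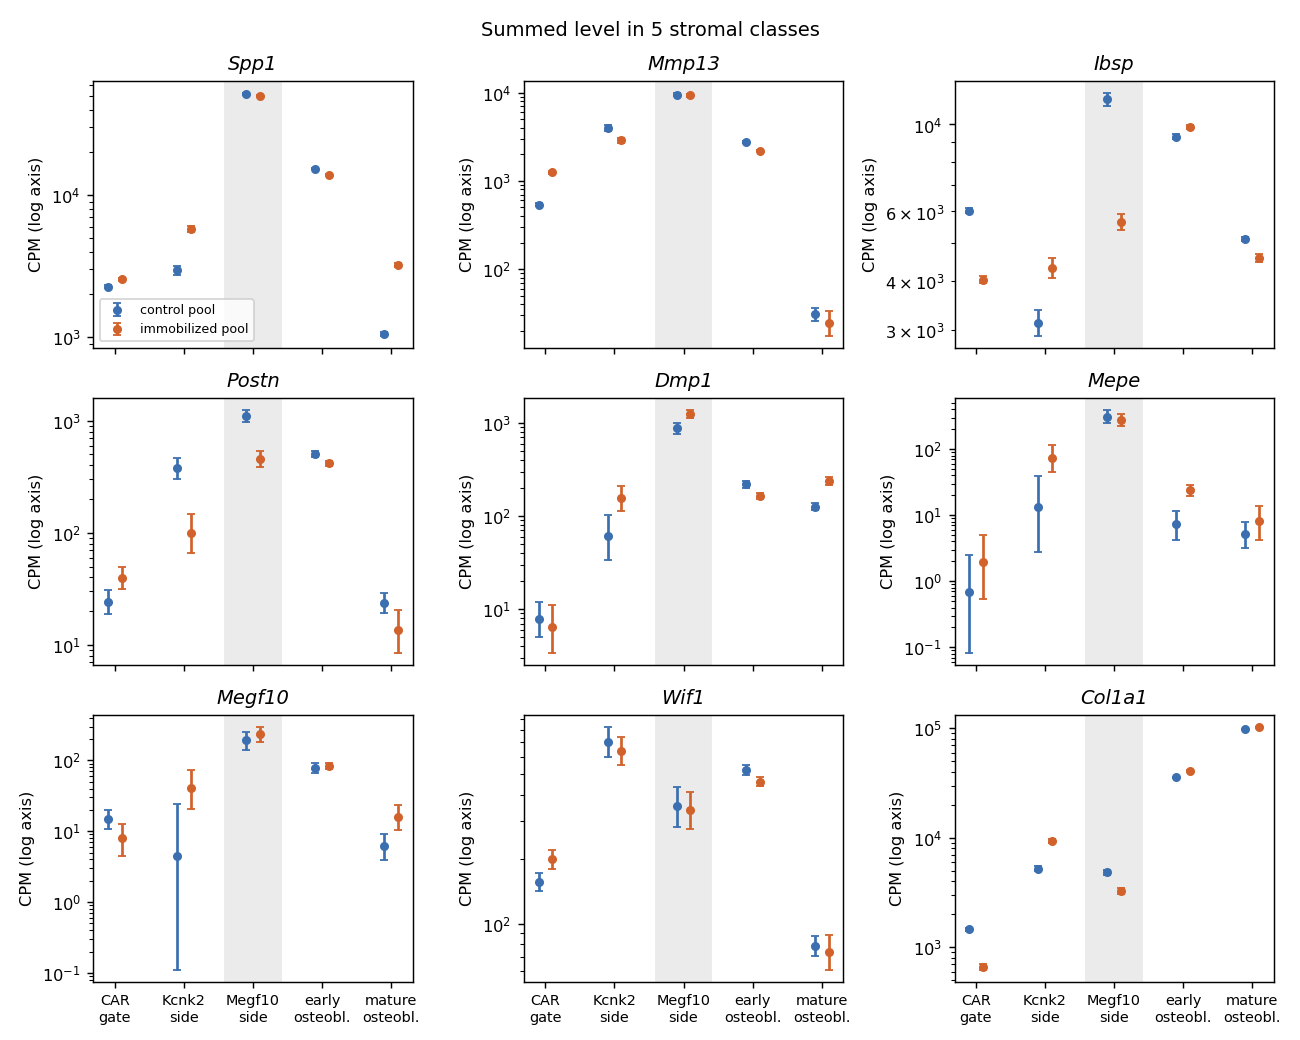
Summed levels of 9 genes (CPM, log axis) in 5 classes of cells, control and immobilized pools as points with 95% Poisson intervals, and the Megf10 side shaded. Spp1, Mmp13, Dmp1, Mepe and Megf10 are highest on the Megf10 side in both pools, Col1a1 is highest in the mature osteoblast gate, and the Wif1 sum on the Kcnk2 side includes 1 cell per pool with 55 or 56 UMIs.

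Summed Dmp1 and Mepe, matrix genes outside the score, stood higher on the Megf10 side than in neighbouring classes. Genes that go with the score can be pulled in, and the osteoblast gates were not split by it, so these levels are descriptions. Dmp1, which nucleates mineral and is a marker of osteocytes, was at 872 CPM (760 to 996) and 1241 CPM (1121 to 1370). In control 113 of its 218 UMIs came from 1 cell, and without the top cells it was at 446 and 1003 CPM, with a UMI in 47.8% and 48.6% of cells. On the Kcnk2 side it was at 61.8 and 156 CPM, in the early osteoblast gate at 220 and 163 CPM and in the mature osteoblast gate (low Cxcl12, and Bglap plus Bglap2 at 100 CP10k or more) at 126 and 240 CPM. Mepe, a phosphoglycoprotein of osteocytes, was at 312 and 279 CPM, against 7.23 and 23.9 CPM in the early osteoblast gate, but from few cells. Only 4 control and 13 immobilized cells had a Mepe UMI, and 53 of the 78 control UMIs came from 1 cell.

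The osteocyte genes were only partly present. Of 7 osteocyte markers, 6 had a UMI in control and 5 in immobilized cells of the side, and Sost, which encodes the Wnt inhibitor sclerostin, was at 0 in both. Col1a1, the main bone collagen, was at 4821 and 3251 CPM, against 35559 and 41042 CPM in the early and 98121 and 101947 CPM in the mature osteoblast gate. Runx2, the transcription factor that commits cells to bone, was at 2969 and 3558 CPM. Lepr, the leptin receptor that marks adult marrow stroma, was at 60.0 and 41.2 CPM, against 543 and 401 CPM on the Kcnk2 side.

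Over the 1383 genes with at least 50 UMIs on either side in a pool, 33 (2.39%) were at least 2-fold higher on the Megf10 side in both pools with intervals excluding no difference, and 66 (4.77%) were lower. Both counts are relative to the Kcnk2 side and share cells with the score, so they describe the split. Outside the rule genes, those ranked highest by the smaller of the 2 pools' ratios were Dmp1, Timp1, Col2a1, Ank, Mepe, Ust, Enpp1, Bmp3, Mob3b, Cryab, Sema5a and Rnf150. Without the limit on Panx3, Adamts18, Fat3 and Lgr6, Col2a1 and Cryab lay on the other side of 0 in the immobilized pool (log2 ratios -0.18 and -0.36).

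Regulators of mineral were among them. Ank, a transporter that raises extracellular pyrophosphate and so restrains mineral, was at 540 and 1007 CPM on the Megf10 side and 110 and 249 CPM on the Kcnk2 side. Enpp1, the ectoenzyme that makes pyrophosphate, was at 312 and 443 CPM against 92.7 and 96.5 CPM. Log2 ratios were 2.27 and 2.01 for Ank and 1.73 and 2.18 for Enpp1. The ranking asked for the same direction in both pools, so that agreement was set by the selection.

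Secreted inhibitors and a guidance molecule were other entries. Timp1, an inhibitor of metalloproteinases, was at 508 and 421 CPM against 106 and 70.5 CPM. Bmp3, a BMP family member that opposes bone-forming BMP signals, was at 168 and 180 CPM against 53.0 and 59.4 CPM. Sema5a, a guidance molecule, was at 1324 and 1314 CPM against 490 and 468 CPM and was found in 82.6% and 80.6% of Megf10-side cells.

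Genes lower on the Megf10 side included markers of marrow stroma and basement membrane. Lepr had log2 ratios of -3.14 and -3.24 in control and immobilized cells. Fbln5, an elastic fibre protein, was at 40.0 and 6.33 CPM against 340 and 182 CPM. Col4a2, a basement membrane collagen, was at 4.00 and 31.7 CPM against 146 and 252 CPM. Adcy2, an adenylyl cyclase, was at 8.00 and 44.3 CPM against 366 and 419 CPM. Pdzrn4 had 0 UMIs in control cells of the Megf10 side and was at 15.8 CPM in immobilized ones, against 874 and 557 CPM. Further entries were P3h2, Thsd7a, Negr1, Aldh1a2, Arhgap26, Prr16 and Cacna1c, whose ratios in the pool with the smaller difference lay between -3.40 for P3h2 and -2.46 for Cacna1c. The Kcnk2 side also held other cells, whose part was not tested. There, 4 immobilized cells carried 3 or more endothelial markers with 2 UMIs each. By that count 1 control and 3 immobilized cells had granulocyte, 3 and 1 leukocyte and 2 and 1 B lineage markers. Each of these was 0 on the Megf10 side, but other lists were not. There, 1 control cell passed for erythroid and 1 for osteoclast markers, and 1 immobilized cell each for pericyte and chondrocyte markers. The Kcnk2 side had 2 immobilized cells for erythroid, 1 control cell for osteoclast and 0 for pericyte or chondrocyte markers.

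**Figure D2:**
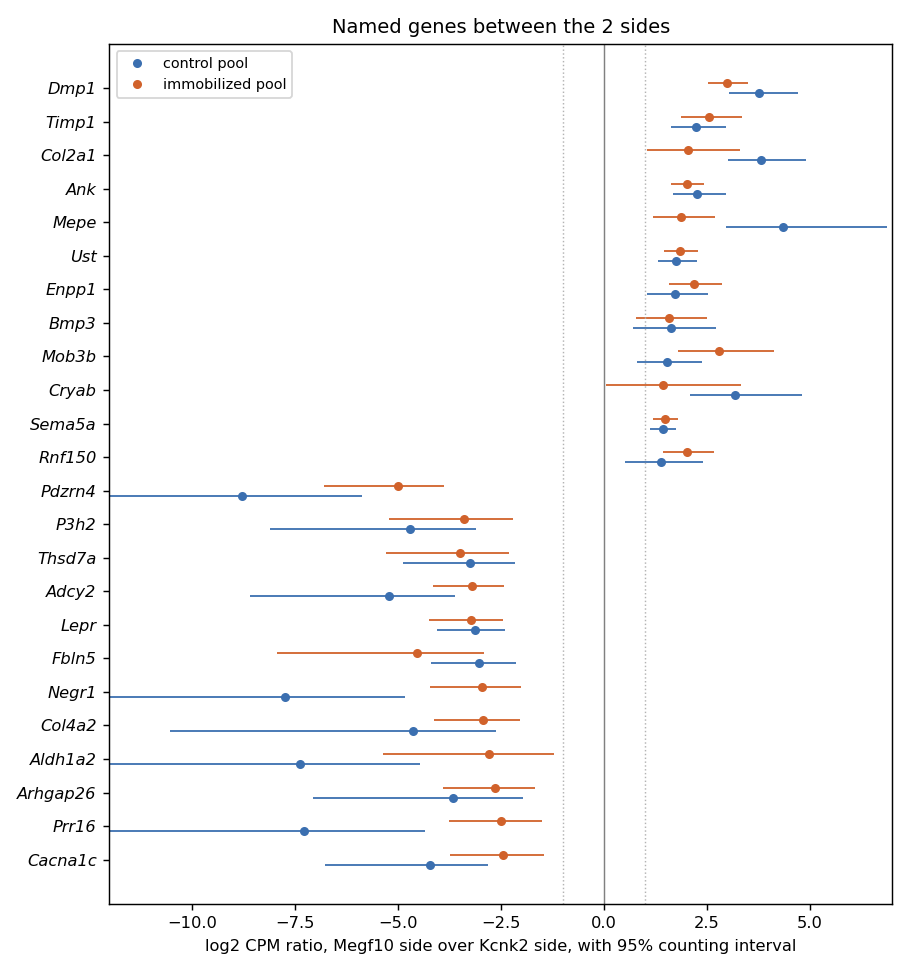
Log2 ratio of summed CPM, Megf10 side over Kcnk2 side, for the 12 genes ranked highest and 12 ranked lowest outside the rule, with points per pool, lines for 95% counting intervals, and dotted lines at a 2-fold difference. Intervals without a lower end, for genes at 0 UMIs, run off the axis, and Dmp1 and Lepr sit on opposite sides of 0 in both pools.

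Counts within the lists of pathways are given beside the shares over all 1383 genes measured, 2.39% higher and 4.77% lower. Genes that go with the score can be pulled in, so these counts are descriptions. Of 13 osteoblast genes measured, Enpp1, Bmp8a and Dmp1 were higher and 0 were lower. Of 17 measured matricellular and fibrillar matrix genes, 0 were higher and Col3a1, Fbn1, Fbln5, Ogn and Lum were lower. Of 6 measured niche factors, which support blood-forming cells, 0 were higher and Kitl, Igf1 and Cxcl14 were lower. Of 8 measured engulfment genes other than Megf10 itself, 0 were higher and Gas6 and Gulp1, a bridging protein and an adaptor, were lower.

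The 118 cells were not alike. Rank correlations over them describe levels per cell in 1 shared pair of libraries with unequal depth. The cells were also kept by a score that uses Megf10, Postn, Spp1 and Mmp13. That selection can itself shape correlations with these genes and with genes that go with them, and its part was not tested. Spp1 and Dmp1 went together (Spearman rho 0.55 over 118 cells, 0.48 over 46 control and 0.56 over 72 immobilized cells), as did Ibsp and Col1a1 (0.54). Postn and Dmp1 ran opposite (-0.35), and Spp1 and Mmp13, both score genes, were near 0 (-0.01).

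Cells with at least 5 Dmp1 UMIs numbered 8 of 46 control (17.4%, 7.8 to 31.4) and 17 of 72 immobilized (23.6%, 14.4 to 35.1). They held Spp1 at 81578 and 81407 CPM, above the side as a whole. Postn differed between them, at 1024 CPM in the 8 control cells and 105 CPM in the 17 immobilized cells. Cells with no Postn UMI had Ibsp at 2556 and 3613 CPM, against 13049 and 7387 CPM in cells with one, and their median depth was lower (3128 and 3080 against 4657.5 and 4853.5 UMIs).

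**Figure D3:**
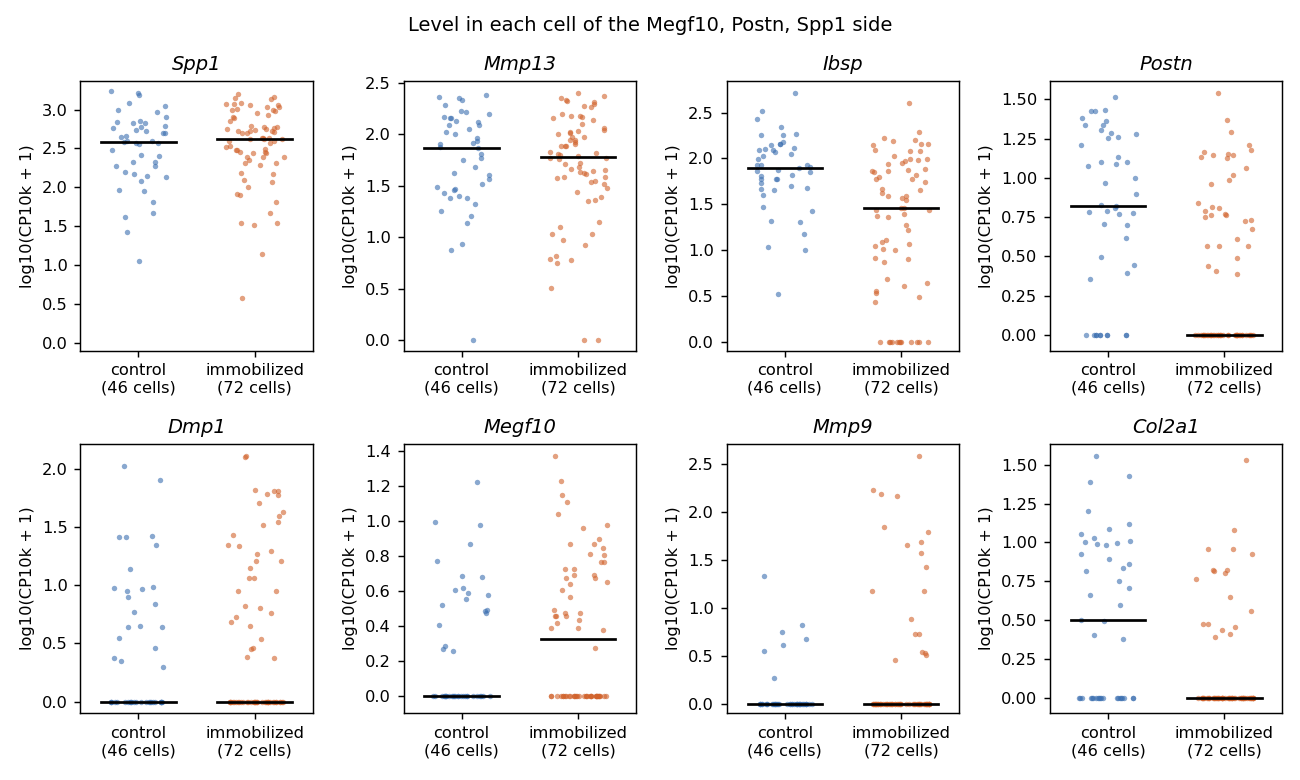
Level of 8 genes in each cell of the Megf10 side (log10 of CP10k plus 1), control and immobilized cells as points and medians as bars. Spp1 overlaps almost wholly between the pools, Ibsp reaches 0 in immobilized cells and in no control cell, and high Mmp9 is confined to a minority of cells plotted.

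Between the pools, 1246 genes had at least 50 UMIs in either pool of the Megf10 side, and their median log2 ratio, immobilized over control, was 0.10, but -0.02 at a minimum of 100 UMIs, -0.08 in cells called female and -0.05 in cells called male. Of them 76 (6.10%) were at least 2-fold higher with an interval above 1 and 28 (2.25%) were lower. Genes that reached 50 UMIs only in the pool where they were high had to differ, so these counts are descriptions. With ratios taken relative to that median the split was 58 higher and 43 lower, and in cells called female 54 and 71.

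Length of the gene moved with the ratio. Median log2 ratios were -0.46 for genes up to 10 kb, -0.03 for 10 to 50 kb, 0.19 for 50 to 100 kb and 0.29 over 100 kb. The Kcnk2 side had -0.24, 0.03, 0.11 and -0.01. The mature osteoblast gate had -0.27, 0.02, 0.28 and 0.41, and the early osteoblast gate -0.09, 0.03, 0.07 and 0.07. In the Cxcl12-high gate (Cxcl12 at 50 CP10k or more, low Bglap) the medians were -0.16, -0.02, 0.09 and 0.14. The trend was thus not particular to the Megf10 side. Ribosomal protein genes made up 8.10% of UMIs in control and 5.45% in immobilized cells of the Megf10 side, and genes over 100 kb 21.9% and 26.1%. The ribosomal share was 8.00% and 4.95% in the mature and 7.19% and 5.98% in the early osteoblast gate. It was 5.72% and 4.60% on the Kcnk2 side and 3.64% in both pools of the Cxcl12-high gate. Relative to genes of their own length, a setting chosen after seeing the data, 54 genes were higher and 27 lower. The part of gene length in single results was not tested.

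**Figure D4:**
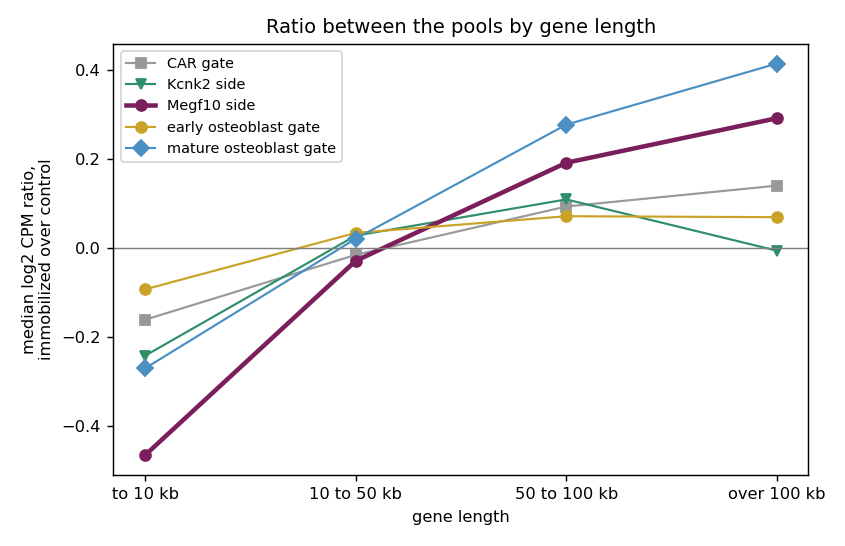
Median log2 ratio of CPM, immobilized over control, by gene length class in 5 classes of cells, with the Megf10 side as the thick line. On the Megf10 side the medians run from -0.46 in the shortest class to 0.29 in the longest, and in the mature osteoblast gate from -0.27 to 0.41.

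Ibsp, the bone sialoprotein gene, was the abundant gene with a clear difference. In control cells it stood at a lowest, median and highest of 2.29, 78.3 and 510 CP10k, and in immobilized cells at 0, 27.4 and 405 CP10k. The ranges overlapped, and all 46 control but 60 of 72 immobilized cells had a UMI. Summed Ibsp was 11587 CPM (11169 to 12017) and 5641 CPM (5382 to 5909), a log2 ratio of -1.04 (-1.12 to -0.95), and without the top cell of each pool it was -1.04. The ratio on the Kcnk2 side was 0.47, from 3121 to 4309 CPM. In the 6 control and 20 immobilized cells called male the ratio was 0.02 (-0.21 to 0.25), and with the rule and values from lane 2 it was -0.83, short of 2-fold.

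Col2a1, the cartilage collagen that early bone-forming cells can also transcribe, was at 712 CPM in control and 142 CPM in immobilized cells (log2 ratio -2.31, -2.83 to -1.84). A UMI was found in 26 of 46 and 18 of 72 cells, and in 8.9% and 2.6% of the cells with blood markers, which are no clean blank. Cells called male had 1 and 16 UMIs, a ratio of 1.59 (-0.56 to 7.52). The mature osteoblast gate also had less Col2a1 in the immobilized pool, 2784 and 981 CPM.

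Mmp9, a gelatinase usually linked to osteoclasts and neutrophils, was high in a minority of immobilized cells. Summed Mmp9 was at 100 CPM (25 UMIs, 7 cells) in control and 1567 CPM (495 UMIs, 19 cells) in immobilized cells, a log2 ratio of 3.94 (3.39 to 4.61), and 4.22 without the top cell of each pool. At least 5 Mmp9 UMIs were found in 2 control and 13 immobilized cells, and in those 13 Spp1 was at 19592 CPM and Mmp13 at 11119 CPM. The other markers of osteoclasts were summed over all cells of the side, and not in those 13 cells alone. By cell, 1 control and 0 immobilized cells of the side had 2 or more UMIs of at least 3 osteoclast markers, Mmp9 included. Of the 8 markers other than Mmp9, 4 had a UMI in each pool, Ocstamp, Dcstamp and Calcr were at 0 in both, Acp5 was at 0 and 2 UMIs, and the 8 summed to 308 and 313 CPM. Mmp9 went the other way on the Kcnk2 side, 3412 and 765 CPM, where 425 of 773 control and 115 of 206 immobilized UMIs came from 1 cell each.

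Signalling genes were among the higher ones. Bmp2, a bone-inducing ligand, was at 32.0 CPM (8 UMIs) and 203 CPM (64 UMIs), a log2 ratio of 2.59 (1.60 to 3.93). On the Kcnk2 side 4 and 16 UMIs of Bmp2 gave 1.62 (0.12 to 3.79). Smad3, which carries TGF-beta signals to the nucleus, was at 48.0 and 184 CPM (1.89, 1.02 to 2.97), and 3 and 12 UMIs in cells called male gave -0.04 (-1.76 to 2.59). Tgfbr2, a receptor for TGF-beta, was at 60.0 and 199 CPM (1.70, 0.90 to 2.65), with 37 of its 63 immobilized UMIs in 1 cell, and 0.85 without the top cells. Cells called male had 4 UMIs of it in each pool. Of 11 BMP and TGF-beta genes measured, Bmp2 and Tgfbr2 were higher and 0 lower, against 6.10% and 2.25% of all 1246 genes. The list median was 0.25, but -0.11 in cells called female, -0.66 in cells called male and -0.35 at a minimum of 100 UMIs.

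Pappa, a protease that frees insulin-like growth factors from binding proteins, was at 40.0 CPM (10 UMIs) and 355 CPM (112 UMIs), a log2 ratio of 3.08 (2.22 to 4.25). Igfbp5 and Igfbp7, which bind such factors or the extracellular matrix, had ratios of 1.48 and 1.19, but Igfbp5 was at 0.72 with the rule and values taken from lane 2, and at -0.02 (-1.27 to 1.65) in cells called male. Of 6 IGF and FGF genes measured, these 2 were higher and 0 were lower, against 6.10% and 2.25% of all 1246 genes. Those 2 genes stood on the Kcnk2 side at -0.90 and -0.78.

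Hedgehog and Notch genes were led by the Hedgehog pathway. Gli2 and Gli3, its transcription factors, and Ptch1, its receptor and target, had log2 ratios of 1.08, 1.49 and 1.07. Of 5 genes measured these 3 were higher and 0 lower, against 6.10% and 2.25% of all 1246 genes, with a median of 1.07. Gli2 and Ptch1 were thus only just past 2-fold. The list median was 0.98 under median-ratio scaling and 0.79 relative to genes of their own length. With the rule and values from lane 2 it was 0.73. In cells called female it was 0.78, and in cells called male 1.62. For Ptch1, 208 CPM in control and 440 CPM in immobilized cells rested on 52 and 139 UMIs in 22 and 41 cells. On the Kcnk2 side Gli3 was at -0.93 and Gli2 at 1.16.

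Adhesion and guidance genes also appeared. Cd44, a receptor for hyaluronan and osteopontin, was at 120 and 358 CPM (log2 ratio 1.56, 0.98 to 2.21), and Itga1, a collagen-binding integrin, at 56.0 and 161 CPM. Of 6 measured integrins and osteopontin receptors these 2 were higher and 0 lower, against 6.10% and 2.25% of all 1246 genes. Sema3a, a guidance factor that restrains osteoclasts, was at 56.0 and 184 CPM (1.67), and its receptor Nrp1 at 104 and 307 CPM (1.54). Of 11 axon guidance genes measured these 2 were higher and 0 lower, against the same 6.10% and 2.25% over all genes. Of the 11, 6 were above 0. The median was 0.004, but -0.09 under median-ratio scaling, -0.08 in cells called female and -0.29 relative to genes of their own length. Xpr1, a phosphate exporter, was at 40.0 and 180 CPM (2.12, 1.19 to 3.31) and was found in 15.2% and 48.6% of cells.

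Several high ratios rested on 1 cell. Mgp, an inhibitor of cartilage and vessel mineral, had 1 UMI in control and 229 in immobilized cells, a log2 ratio of 6.92 (5.01 to 12.8), but 215 of them were in 1 cell. F13a1, a transglutaminase, had 2 and 64 UMIs, 46 of them in that same cell. That cell had 9838 UMIs in all, 116 of Col10a1, the collagen of hypertrophic cartilage, 8 of Col2a1, 7 of Acan, the cartilage proteoglycan, 210 of Mmp13 and 244 of Spp1, and it had 0 Ibsp and 1 Col1a1 UMI. Col10a1 was absent from all 46 control cells.

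Some heat shock genes were lower in the immobilized pool. Cryab, a small heat shock protein, was at 260 and 53.8 CPM (log2 ratio -2.24, -3.14 to -1.49). Hspb1 and Hspa1a, also heat shock genes, had ratios of -2.50 and -1.30, but 108 of the 127 control UMIs of Hspb1 and 133 of the 189 of Hspa1a came from 1 cell each, and without the top cells the ratios were -0.60 and -0.04. Hspa1a and Hspa1b are near-identical copies whose reads may be split between them. Of 9 measured heat shock genes, 0 were higher and these 3 were lower, against 6.10% and 2.25% of all 1246 genes. Of 12 measured immediate early and stress genes, 10 were above 0, with a median of 0.32, and 0 were called either way.

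Bst2 and Ifi27, induced by interferon, were at 276 and 66.5 CPM and at 256 and 82.3 CPM (log2 ratios -2.03 and -1.62). On the Kcnk2 side Bst2 and Ifi27 were lower too, at -1.50 and -1.10. Of the 20 genes of the interferon list, these 2 had enough UMIs. Socs3, a brake on cytokine signals, was at 296 and 111 CPM (-1.41), and B2m, the light chain of class I MHC, at 1036 and 500 CPM (-1.05). Trpc6, a calcium channel, was at 588 and 136 CPM (-2.10, -2.64 to -1.61), with a ratio of -1.39 on the Kcnk2 side and 1 and 5 UMIs in cells called male (0.0026, -2.71 to 6.01).

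**Figure D5:**
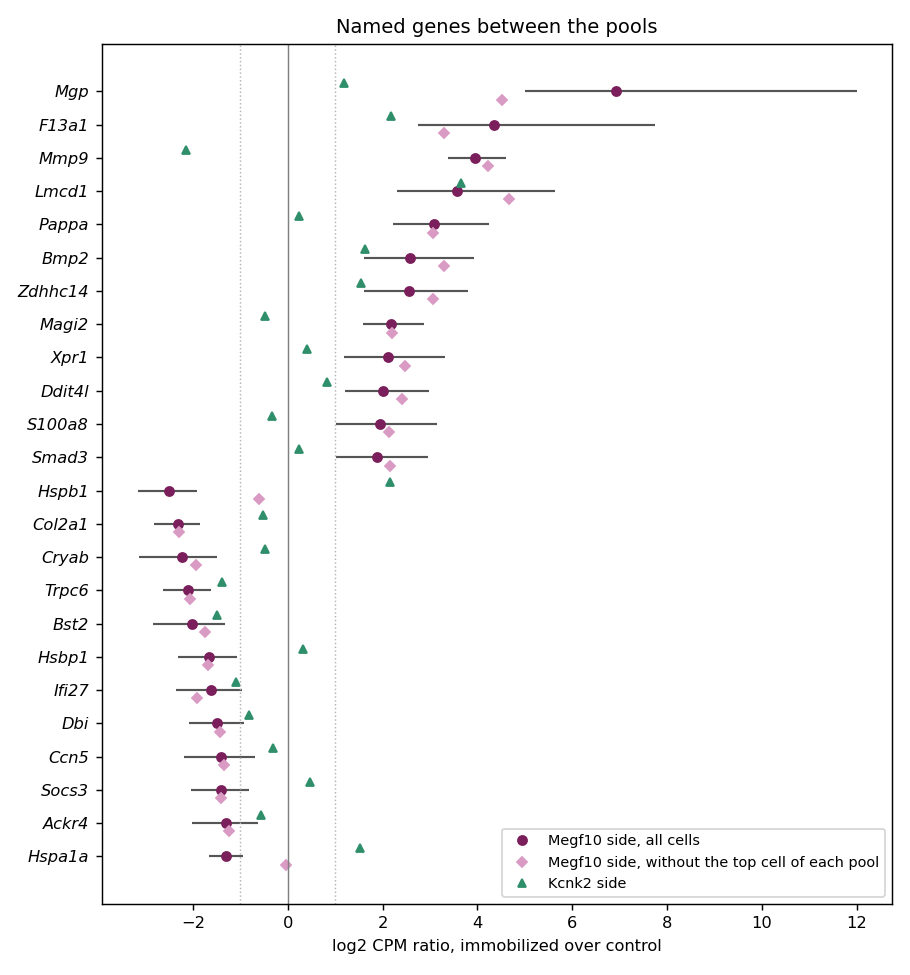
Log2 ratio of summed CPM, immobilized over control, for the 12 genes ranked highest and 12 ranked lowest on the Megf10 side (circles, lines for 95% counting intervals), beside the ratio without the top cell of each pool (diamonds) and the ratio on the Kcnk2 side (triangles). Hspb1 and Hspa1a move towards 0 without the top cell, and Mmp9 has opposite signs on the 2 sides.

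Tnfsf11, the gene of the RANKL driver, was low. It was at 40.0 CPM (10 UMIs) in control and 108 CPM (34 UMIs) in immobilized cells of the Megf10 side, found in 7 and 16 cells (15.2% and 22.2%). In cells with blood markers, some of them high in Cxcl12, 5.4% and 9.0% had a UMI. The Kcnk2 side had 106 and 100 CPM, and the Cxcl12-high gate 95.7 and 212 CPM. Tnfrsf11b, which encodes the RANKL decoy osteoprotegerin, was at 24.0 CPM (6 UMIs) and 104 CPM (33 UMIs, 10 of them in 1 cell). Neither had enough UMIs to enter the calls.

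Over the other lists, few genes passed. They are read beside the median of 0.10 over all genes measured, of which 6.10% were higher and 2.25% lower. Of 12 osteoblast genes measured, 0 were higher and Ibsp was lower, with a median of -0.37 (0.20 in cells called male). Of 11 matricellular and fibrillar matrix genes, Fbn1, a fibrillin, and Lox, which crosslinks collagen, were higher and Ccn5 was lower. Among proteases, Adamts9 was at 184 and 434 CPM (log2 ratio 1.23, 0.74 to 1.75) and Adamts5, an aggrecanase, at 308 and 139 CPM (-1.14, -1.71 to -0.59). Of 6 engulfment genes other than Megf10, 0 were higher and 0 lower, with a median of 0.41 that was -0.39 with at least 1000 genes and under 5% mitochondrial UMIs per cell, -0.06 in cells called female and -0.0023 with cells weighted equally. Megf10 itself had a ratio of 0.28 (-0.26 to 0.84). All 16 ribosomal protein genes measured were below 0, with a median of -0.59 and Rpl7 called lower, and all 11 mitochondrial transcripts measured were above 0, with a median of 0.20 and 0 called.

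The remaining named genes were given by rank. Those higher were Lmcd1, a LIM domain cofactor, at a log2 ratio of 3.57, Zdhhc14, a palmitoyltransferase, at 2.55, Magi2, a scaffold protein, at 2.17 and Ddit4l at 2.00. On the Kcnk2 side these genes were at 3.66 (from 0 and 7 UMIs), 1.55, -0.48 and 0.83. With the rule and values from lane 2 of the same libraries, Zdhhc14, Magi2 and Ddit4l were at 1.52, 1.33 and 1.09. Those lower were Hsbp1, which binds heat shock factor, at -1.66, Dbi, an acyl-CoA binding protein, at -1.49, Ccn5, a matricellular protein, at -1.41 and Ackr4, a scavenging chemokine receptor, at -1.30. Lane 2 gave Hsbp1 -0.87 and Dbi -0.61, both short of 2-fold. Ddit4l had 3 and 8 UMIs in cells called male (-0.59, -2.52 to 2.09).

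Markers of granulocytes, macrophages and endothelial cells were sparse on the Megf10 side. Of 9 granulocyte markers, 6 had a UMI in control and 9 in immobilized cells, and the list summed to 148 and 364 CPM. S100a8, a granulocyte gene that ranked among the higher ones, was at 40.0 and 161 CPM (log2 ratio 1.96, but 0.42 with the rule and values from lane 2) with at most 3 UMIs in a cell, against 41145 and 10304 CPM in the cells with blood markers, and its part from free RNA was not tested. Of 9 macrophage markers 2 had a UMI in each pool, and they summed to 8.00 and 6.33 CPM, with Csf1r, Adgre1 and C1qa at 0. Of 9 endothelial markers 1 had a UMI in control and 2 in immobilized cells, and they summed to 4.00 and 9.50 CPM, with Cdh5, Kdr and Flt1 at 0.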

How the data were processed

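Filtered count matrices of UMIs per gene and cell were used as the authors deposited them, per the file headers 32286 features each, made with Cell Ranger 7.0.0 on mm10, per the submitters' processing notes. The gene annotation behind the counts was not given in the sources used here. Droplets were made with the 10x 3' v3.1 kit, per the labels' protocols. Feature names and barcodes in the deposited files served as row and column names. The members and gene lists were chosen with earlier results of these data known.

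Lane 1 of each pool was used, with median depths of 5592.5 control and 5691 immobilized UMIs per kept cell. UMIs were summed over the cells of a class and divided by the class total. A log2 ratio added 0.5 to each count, and its interval was the exact conditional binomial one at 95%. Genes with at least 50 UMIs in either arm were measured, and called at 2-fold or more with an interval without no difference. Such intervals cover counting error only. No ratio was taken where both arms had at most 3 UMIs. Named genes were the 12 highest and 12 lowest by ratio outside the 19 rule genes, with a UMI in at least 10% of cells of an arm, the same sign in lane 2 and under median-ratio scaling, and an interval without 0. Genes encoded by mitochondria, ribosomal protein genes, sex-linked markers, immunoglobulin and globin genes and unnamed gene models were not named. Other genes given values belong to the 25 gene lists and 19 marker lists, or were picked after their values were seen.

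Gene lengths came from GENCODE vM21, built on GRCm38 as mm10 is, which matched 32158 of 32286 features. Promoter windows came from RefSeq (GRCm38.p6). The comparison was tested on simulated data. Doublets were called with Scrublet in scanpy 1.11.5, and tables were made with Python 3.11.15, numpy 2.4.6, scipy 1.17.1 and pandas 2.3.3. Alternatives changed the lane, doublets, cell filters, score, scaling, cell weights, count minimum, pseudocount, sex, score mix and depth. A further 3, on gene length, single cells and the early osteoblast limit, were added after seeing the data. The result for 1 listed gene is not reported here.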

Additional observations from a re-analysis of the deposited data

Results flagged for a closer look

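Mmp9 had a log2 ratio, immobilized over control, of 3.94 on the Megf10 side and -2.16 on the Kcnk2 side, from 25 and 495 UMIs and from 773 and 206 UMIs, of which 425 and 115 were in 1 cell each. Flrt2, a cell adhesion molecule, had 1.03 (33 and 86 UMIs) and -1.05 (63 and 36 UMIs). Hspa1a had -1.30 and 1.52, and -0.04 on the Megf10 side without the top cell of each pool. Each was past 2-fold in opposite directions on the 2 sides. The difference between the sides was not tested, since each pool is 1 sample.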

How the results depend on the processing

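No paired analysis was possible because the shared numbers are lanes of 1 library, each group is 1 pool and no test was made; for the same reason no replicate could be left out. Control and immobilized cells of the Megf10 side were 2.17% and 3.43% of kept cells with a cut that kept 1 gated cell in 3, 5.76% and 9.37% after thinning, and 9.75% and 20.6% without the early osteoblast limit. Between the pools the counts, higher and lower, were 175 and 74 with cells weighted equally, 351 and 200 at a minimum of 10 UMIs, 21 and 15 at 100 UMIs, and 23 and 3 in male cells. Lower genes numbered 55 with that stricter cut, 43 under median-ratio scaling and 71 in female cells. Against the Kcnk2 side, lower genes numbered 109 in lane 2, 139 with equal weights, 206 at 10 UMIs and 32 at 100, and higher genes 18 with the stricter cut, 18 at 100 UMIs and 53 without the early osteoblast limit. The other 48 of 72 values of shares and counts stayed within the interval or within 1.5 times. In male cells, with 6 control cells, 7 log2 ratios that were past 2-fold in all cells lay on the other side of 0. They were Ddit4l (-0.59), Smad3 (-0.035), Col2a1 (1.59), Trpc6 (0.0026), Ibsp (0.016), Tgfbr2 (-1.87, from 4 UMIs in each pool) and Igfbp5 (-0.018), each with an interval across 0. F13a1, Zdhhc14, Hspb1 and Hspa1a had at most 3 UMIs per pool there and got no ratio. Of 540 ratios of genes given values between the pools under all alternatives, 84 moved out of their interval, 9 of them in lane 2, besides these 7. Without the early osteoblast limit, ratios to the Kcnk2 side in the immobilized pool turned for Col2a1 (-0.18), Cryab (-0.36), Arhgap26 (0.029) and Cacna1c (0.12). The causes were not tested. Few cells and depth limit every value resting on few UMIs.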
